A study of Mus musculus with 6 samples.

Results

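Smooth muscle and pericyte genes were examined in the lungs of mice with and without cigarette smoke exposure. The 9 genes were Acta2, Tagln, Myh11, Cnn1, Des, Myl9, Actg2, Smtn and Pdgfrb, and every probe set (a group of oligonucleotides on the array that reads one transcript) carrying one of them as its single gene symbol was taken. Each gene had 1 probe set, so 9 of the 12488 probe sets were used (9 of the 8252 genes that the array names singly), and all 9 passed the filter on low signal that left 7453. Lung RNA was measured in C57, DBA and ICR mice, of which ICR is an outbred stock; the labels give no substrain, sex or age. Smoked mice received the smoke of 3 cigarettes a day on 5 days a week for 4 weeks, and control mice are labelled as normal lung. Every strain contributed 1 control and 1 smoked Affymetrix array, 6 arrays in all, titled as mouse 1 of the group, so no group within a strain had a replicate. Replication of the smoke comparison came from the strains (3 pairs), and the labels leave unsaid if RNA of 1 mouse or of several went onto an array.

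Smooth muscle in the lung forms the walls of airways and of larger vessels, and pericytes wrap the capillaries. Contraction depends on smooth muscle actin sliding along smooth muscle myosin, switched on when the myosin light chain is phosphorylated. Most contractile genes of this cell type are driven by serum response factor with its partner myocardin, which bind a short DNA element named the CArG box, and the expression of these genes is widely used to tell contractile smooth muscle from other mesenchymal cells. Pdgfrb, the receptor for platelet-derived growth factor B, marks pericytes and is needed for their recruitment to vessels.

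Of the 9 genes, 5 had an entry in the RefSeq promoter table (Acta2, Cnn1, Des, Myl9 and Smtn, build GRCm38.p6), and the 250 bases before the listed start were searched for the CArG box. The element is 10 bases long, a pair of C, 6 central A or T letters and a pair of G, and reads alike on both strands; matches with 1 central letter changed to G or C were also recorded. Acta2 and Myl9 held 2 matches each, and Cnn1, Des and Smtn none in this window. The matches are shown because the CArG box is the element that the common regulator of the group binds. Binding at these sites was not tested. The 10 bases of the element are in capitals, with 10 bases on either side.
Acta2, chr19:34255438-34255467, minus strand, 84 to 75 bases before the start, 1 letter changed: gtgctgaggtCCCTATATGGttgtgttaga
Acta2, chr19:34255388-34255417, minus strand, 34 to 25 bases before the start, 1 letter changed: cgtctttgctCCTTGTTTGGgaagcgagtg
Myl9, chr2:156775293-156775322, plus strand, 161 to 152 bases before the start, exact: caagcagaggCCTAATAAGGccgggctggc
Myl9, chr2:156775355-156775384, plus strand, 99 to 90 bases before the start, 1 letter changed: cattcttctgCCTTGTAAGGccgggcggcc
An exact element was present in 1.47% of all 32851 promoter entries, and an exact or changed one in 8.59%. Distances are counted from the start listed for each promoter entry. The RefSeq gene span of Acta2 (chr19:34240336-34255585) covers both of its matches, so the listed start is not the end of that span. A match is a description of these letters and not evidence of binding.

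Array quality differed between the arrays. Median deposited intensity was 52.5 to 85.0 on 5 arrays and 26.0 on the ICR smoked array. The 3' to 5' signal ratio, which goes up as RNA is degraded, was highest there too. Beta-actin had a ratio of 4.75 there, and Gapdh one of 2.39. On the C57 control and smoked arrays the ratios were 2.75 and 2.51 for beta-actin and 1.69 and 1.38 for Gapdh. They were lower on the DBA control, DBA smoked and ICR control arrays (beta-actin 1.46, 1.66 and 1.63, Gapdh 0.967, 0.952 and 1.11). Comparisons of DBA with C57 thus also set arrays of unlike ratios against each other, and the part of RNA quality in them was not tested. Because the array medians spread over 1.45 in log2, values were compared on the log2 scale after quantile normalization. This step was chosen for the medians and not for the 3' to 5' ratios. A gene is said to have risen, fallen or been called only at a limma adjusted p below 0.05. Lung identity was clear from Sftpc, the surfactant protein of alveolar type II cells (deposited intensity 7184 to 10579), and Scgb1a1, the secretory protein of club cells (7572 to 10324). Because the RNA is that of the lung as a whole, fewer cells of a type and less RNA per cell cannot be told apart.

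Among the filament genes, Acta2, the smooth muscle alpha-actin, had a deposited intensity of 1187 for C57 control and 1006 for C57 smoked, and, in the same order, of 928 and 1448 in DBA and 735 and 396 in ICR. After normalization these became log2 values of 9.94 and 9.78, 9.72 and 10.08, and 9.63 and 9.65. Both ICR arrays were the lowest, and the DBA smoked array was the highest. Myh11, the smooth muscle myosin heavy chain and the most restricted marker of the lineage, read 882 and 556 in C57, 603 and 1008 in DBA, and 298 and 193 in ICR, in normalized log2 values 9.48 and 8.92, 9.09 and 9.55, and 8.38 and 8.70. Again both ICR arrays lay below the other 4, while the C57 and DBA arrays overlapped. Actg2, the gamma-actin of enteric and other visceral smooth muscle, read 496 and 439 in C57, 299.6 and 502 in DBA, and 217 and 155 in ICR (normalized log2 8.70 and 8.61, 8.06 and 8.50, 7.91 and 8.40). Here both C57 arrays were above the DBA and ICR arrays. The name of the Actg2 probe set carries the suffix that Affymetrix gave to sets sharing probes within a gene family, so other actins may add to its signal. Myl9, the regulatory light chain of smooth muscle myosin, read 189 and 160.0 in C57, 191 and 248 in DBA, and 145 and 72.4 in ICR, and after normalization its 6 values lay between 7.23 and 7.48 and covered the narrowest span but one of the group.

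Of the actin-binding genes, Tagln, which encodes transgelin (SM22 alpha), an actin cross-linking protein, read 1189 and 945 in C57, 986 and 1396 in DBA, and 594 and 422 in ICR. Its normalized log2 values were 9.94 and 9.70, 9.80 and 10.01, and 9.33 and 9.74, with the ICR control array lowest. Cnn1, calponin 1, which binds actin and restrains myosin, read 502 and 367 in C57, 303 and 472 in DBA, and 179 and 74.0 in ICR. Normalized, these were 8.72 and 8.35, 8.08 and 8.42, and 7.65 and 7.40, so the order of strains was C57, DBA, ICR, with C57 and DBA overlapping and both ICR arrays below all others. The Cnn1 probe set is one whose name marks probes shared by more than one transcript. Smtn, smoothelin, a cytoskeletal protein of contractile smooth muscle, read 100.4 and 88.4 in C57, 101 and 150.2 in DBA, and 80.9 and 33.3 in ICR, and its normalized values ran from 6.33 to 6.78 with the strains overlapping.

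Des, desmin, the intermediate filament of smooth, skeletal and cardiac muscle, differed from the other genes in its pattern. It read 219.7 and 186 in C57, 118 and 137 in DBA, and 73.1 and 79.2 in ICR, and normalized values were 7.60 and 7.42, 6.72 and 6.65, and 6.43 and 7.49. The ICR pair was thus split, with its smoked array at the C57 level and its control array the lowest of all. Pdgfrb read 120.05 and 116 in C57, 121 and 172 in DBA, and 98.0 and 47.3 in ICR, and its normalized log2 values of 6.76 to 6.99 formed the narrowest span of the 9 genes.

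**Figure D1:**
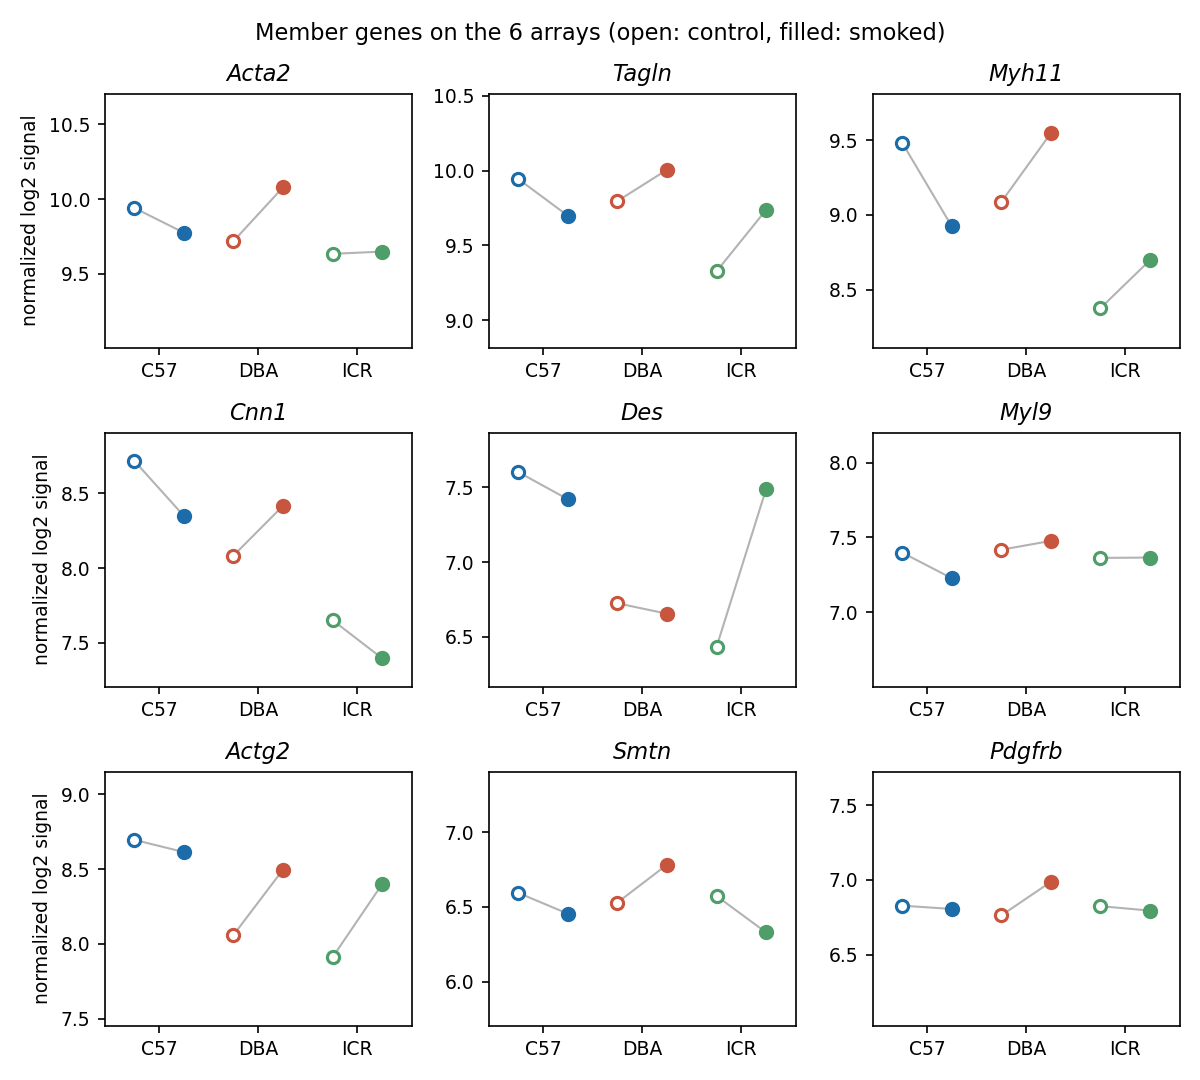
Normalized log2 signal (vertical axis, each panel spanning the same range) of the 9 genes on the 6 arrays, by strain, with open points for control and filled points for smoked arrays and a line joining each pair. Cnn1 and Myh11 are lowest on both ICR arrays, Des is high in ICR on the smoked array and low on the control array, and Pdgfrb and Myl9 lie within a narrow band.

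The first comparison asked what smoke changed across the strains. None of the 9 genes was called, and 0 of 9 had an unadjusted p below 0.05 (limma, strain as a block, 3 pairs); over all probe sets 3 were called, or 0.0403%, and 1.65% had an unadjusted p below 0.05. The largest mean difference, smoked minus control, was that of Actg2, log2 0.28 (SE 0.20, 95% interval -0.17 to 0.73), followed by Des at 0.27 (SE 0.27, -0.35 to 0.88). Tagln stood at 0.12 (interval -0.29 to 0.54), Myh11 at 0.07 (-0.44 to 0.59), Acta2 at 0.07 (-0.32 to 0.46) and Pdgfrb at 0.06 (-0.40 to 0.52). Myl9 stood at -0.04 (interval -0.48 to 0.40), Smtn at -0.04 (-0.54 to 0.45) and Cnn1 at -0.10 (-0.57 to 0.38). All 9 adjusted p values rounded to 1, and the intervals show the sizes of change that 3 pairs could not resolve. The median over the 9 genes was 0.07, against 0.01 over all probe sets. Without scaling, which moved the median of all probe sets to -0.21, the values of Acta2, Tagln, Myh11 and Pdgfrb were negative.

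The small means arose from pairs of opposite sign. On the C57 smoked array all 9 genes were lower than on the C57 control array, from -0.02 for Pdgfrb and -0.08 for Actg2 to -0.37 for Cnn1 and -0.56 for Myh11 in log2, with a median of -0.17 against -0.01 over all probe sets, of which 51.3% were lower. In the DBA pair 8 of 9 were higher on the smoked array, from 0.06 for Myl9 to 0.46 for Myh11, with Des at -0.07 and a median of 0.25 against 0.03; over all probe sets 53.8% were higher. In the ICR pair 6 were higher and 3 lower, from -0.25 for Cnn1 and -0.24 for Smtn to 0.41 for Tagln, 0.49 for Actg2 and 1.06 for Des, with a median of 0.02 against 0.01. For no gene did the 3 smoked arrays lie apart from the 3 control arrays, as they did for 3.58% of all probe sets. No gene went the same way in all 3 pairs, a pattern that 17.6% of all probe sets had, and 8 of 9 were lower in C57 and higher in DBA, as were 29.1% of all probe sets. These counts come from 1 array a group and carry no test, and the 9 genes of a sample share its tissue, so they are not independent.

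The C57 and DBA counts of lower genes, 9 and 1 (46% of all probe sets were lower in DBA), kept their values with 1 or 32 added before taking logs and with scaling to a common median, and were 9 and 0 with no scaling. The ICR count of 3 lower genes (48.7% of all probe sets) rested on the scaling. It was 5 with scaling to a common median and 8 with none, where the all-probe-set median of that pair was -0.04 and -0.87, against 0.01. Set against that median instead of 0, the count moved less: 4 genes lay below it in the main fit, 5 with scaling to a common median and 5 with none. Only Des in ICR reached a 2-fold difference, 2.08-fold, which 1.22% of all probe sets did in C57, 3.07% in DBA and 6.49% in ICR. The Des value depends on the scaling, since its deposited intensities in that pair were 73.1 and 79.2, while the array medians were 52.5 and 26.0.

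**Figure D2:**
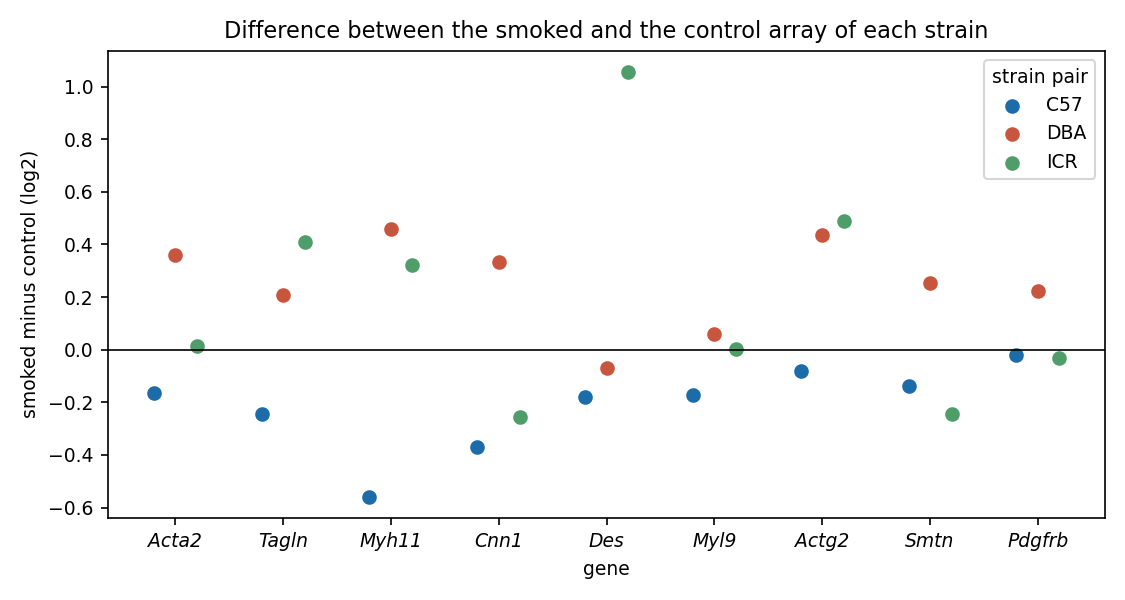
Difference between the smoked and the control array of each strain (log2, vertical axis) for the 9 genes, 1 point per strain pair. All C57 points lie below 0, from -0.02 to -0.56, all DBA points but that of Des lie above 0, and Des in ICR stands highest at 1.06.

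Whether 1 strain responded unlike the other strains was then fitted as an extra smoke effect for that strain. Each extra effect sets the difference of 1 pair against the mean of the other pairs. The effects of the strains therefore depend on each other, and their signs re-express the pair differences given above. None of the 9 genes was called for C57, DBA or ICR by limma, against 0.295%, 0.577% and 0% of all probe sets, and the numbers with an unadjusted p below 0.05 were 0, 0 and 1, against 3.15%, 3.77% and 14.4%. For C57 the extra effect was negative for all 9 genes, from -0.95 for Myh11 (SE 0.49, adjusted p = 1) to -0.12 for Pdgfrb. For DBA it ran from -0.51 for Des to 0.64 for Cnn1 (SE 0.52, adjusted p = 1) and was positive for 8. For ICR it ran from -0.30 for Smtn to 1.18 for Des (SE 0.32, unadjusted p = 0.0124, adjusted p = 0.291). Over 9 alternatives the Des value lay between 0.12 and 1.26. The SE of these extra effects was 0.30 to 0.62 over the 9 genes, and with 1 pair per strain a response cannot be told apart from an unusual sample.

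The next comparisons set the strains against each other over both exposures, 2 arrays for each. ICR lungs had the lowest values of Cnn1 and Myh11, but no gene was called. In ICR minus C57 the difference of Cnn1 was -1.01 (SE 0.26, 95% interval -1.59 to -0.43, unadjusted p = 0.00346, adjusted p = 0.0879), which is 2.01-fold less in ICR, and that of Myh11 was -0.66 (SE 0.28, interval -1.29 to -0.04, adjusted p = 0.255). Des stood at -0.55 (SE 0.33, adjusted p = 0.422), Actg2 at -0.50 (SE 0.24, adjusted p = 0.319), Tagln at -0.29 and Acta2 at -0.22. Smtn at -0.07, Pdgfrb at -0.01 and Myl9 at 0.05 differed by less than their SE. In all 0 of 9 were called by limma and 2 had an unadjusted p below 0.05, against 2.28% called and 18% with an unadjusted p below 0.05 over all probe sets. The median was -0.29 against -0.02, and both ICR arrays lay below both C57 arrays for Acta2, Myh11, Cnn1 and Actg2, or 4 of 9, as for 26.5% of all probe sets.

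The Cnn1 difference was close to the threshold and crossed it in 3 of 15 alternatives. With scaling to a common median its limma adjusted p was 0.0471, and 229 of all probe sets were called, against 170 in the main fit. The others left out the DBA control or the DBA smoked array. There the Cnn1 value itself stayed at -1.01 and more probe sets were called over the whole array than in the main fit, so these crossings are not particular to Cnn1. The value ran from -1.82 with no scaling (all-probe-set median -0.73) to -0.80 without the C57 control array, where the adjusted p was 0.600, the highest of the 15. Without the ICR smoked array, which had the highest 3' to 5' ratios, Cnn1 stood at -0.89 (adjusted p = 0.134) and none of the 9 genes was called. The part of RNA quality in the difference was not tested. The Myh11 difference moved more with single arrays, to -0.19 without the C57 control array (adjusted p = 0.984) and to -1.14 without the C57 smoked array (adjusted p = 0.0758).

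ICR minus DBA shares the ICR arrays with the comparison just given, and Myh11 and Cnn1 again had the lowest values. Myh11 differed by -0.78 (SE 0.28, interval -1.41 to -0.15, adjusted p = 0.232) and Cnn1 by -0.73 (SE 0.26, interval -1.30 to -0.15, adjusted p = 0.227). Without the DBA smoked array these values were -0.49 (adjusted p = 0.618) and -0.40 (adjusted p = 0.715). Tagln stood at -0.37, Acta2 at -0.26, Smtn at -0.20, Actg2 at -0.12, Myl9 at -0.08, Pdgfrb at -0.07 and Des at 0.27, each with an adjusted p between 0.459 and 0.927. None of the 9 was called and 2 had an unadjusted p below 0.05, against 1.13% called and 15.5% with an unadjusted p below 0.05 over all probe sets. The median was -0.20 against 0.01, and both ICR arrays lay below both DBA arrays for 5 of 9 genes, as for 22.8% of all probe sets.

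In DBA minus C57 Des had the largest difference of the 9 genes, -0.82, which did not pass the test (SE 0.33, interval -1.57 to -0.07, unadjusted p = 0.0358, adjusted p = 0.375), followed by Actg2 at -0.38 (SE 0.24) and Cnn1 at -0.28 (SE 0.26). Without the C57 control array the Des difference was -0.48 (adjusted p = 1). Myl9 stood at 0.13, Smtn at 0.13, Myh11 at 0.12, Tagln at 0.08, Pdgfrb at 0.06 and Acta2 at 0.04, each with an interval reaching at least 0.40 on either side of 0. No gene was called and 1 had an unadjusted p below 0.05, against 1.73% called and 11.5% with an unadjusted p below 0.05 over all probe sets. Des and Actg2 were lower on both DBA arrays than on both C57 arrays, 2 of 9, as were 29.2% of all probe sets. Scaling to a common median (all-probe-set median -0.16) turned the values of Acta2, Tagln, Myh11 and Pdgfrb negative.

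**Figure D3:**
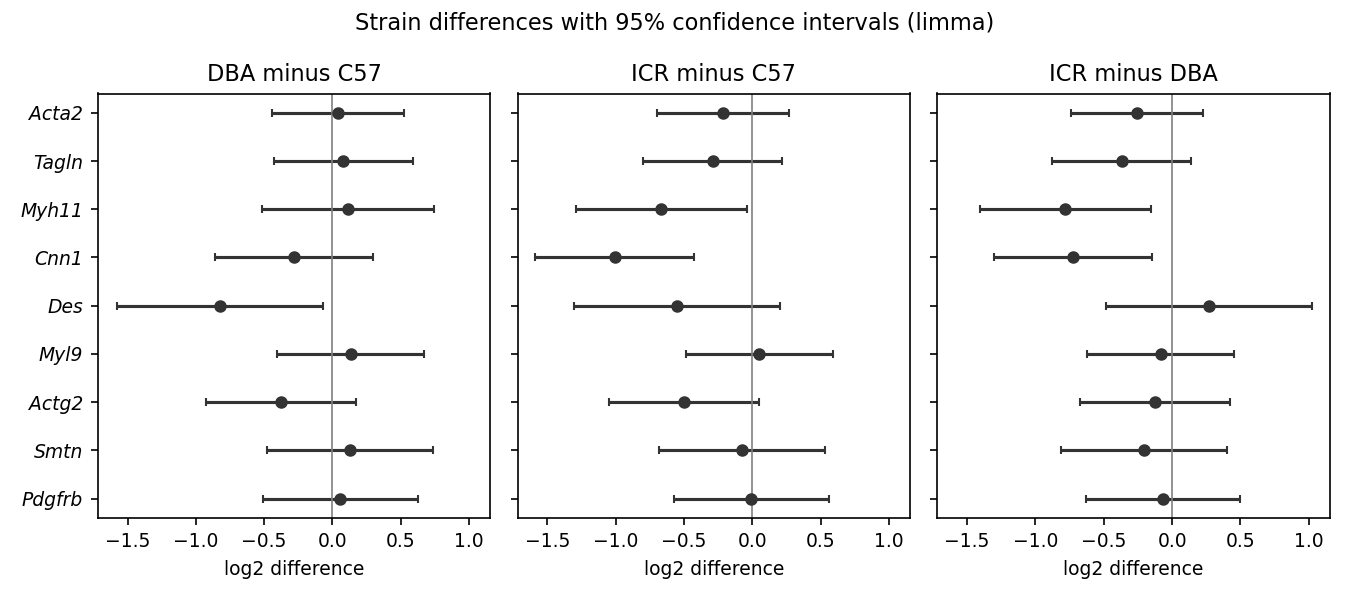
Differences between strains over both exposures for the 9 genes (log2, horizontal axis), with 95% confidence intervals from limma. The intervals of Cnn1 and Myh11 lie below 0 in ICR minus C57 and ICR minus DBA and that of Des below 0 in DBA minus C57, before adjustment over the 7453 probe sets; after it none was called.

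Other muscle types were measured alongside, since Des is shared with them. The 12 skeletal muscle markers had a summed deposited intensity of 6414 and 4567 in C57, 1251 and 707 in DBA, and 337 and 228 in ICR, and of 8 tested, 5 were called lower in DBA than in C57 and 5 lower in ICR than in C57 (Acta1, Myh1, Tnnc2, Tnnt3 and Atp2a1, each); Acta1 was also called lower in ICR than in DBA (log2 -2.26). The 12 cardiac markers, which the muscle sleeves of the pulmonary veins express, summed to 8151 and 6656, 5462 and 8997, and 4913 and 2427, and 1 of 11 tested was called in each strain comparison, Myl3, a ventricular and slow muscle light chain, lower in DBA and lower still in ICR. In normalized mean log2 the cardiac list went from 8.41 to 8.22 in the C57 pair and from 7.95 to 8.37 in the DBA pair, and stood at 7.89 on both ICR arrays, while the 9 smooth muscle and pericyte genes went from 8.36 to 8.14, from 8.02 to 8.27, and from 7.79 to 7.98. By these means, which carry no test, both lists were lower on the smoked array in C57, higher on it in DBA, and lowest in ICR. The low cardiac mean in ICR was not shared by the list as a whole. The median over the 11 tested cardiac markers was -0.11 in ICR minus C57 and 0.02 in ICR minus DBA. Myl3 had the lowest values there, -3.28 and -1.87. Markers of oesophagus and tracheal epithelium, organs with their own muscle, summed to 915 and 1771 in C57, 592 and 336 in DBA, and 173 and 144 in ICR; of 4 tested, Krt13 and Mt4 were called lower in ICR than in C57, and the extra smoke effect of DBA was called lower for Krt4 and Mt4. How far these other tissues take part in the values of the 9 genes was not tested.

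**Figure D4:**
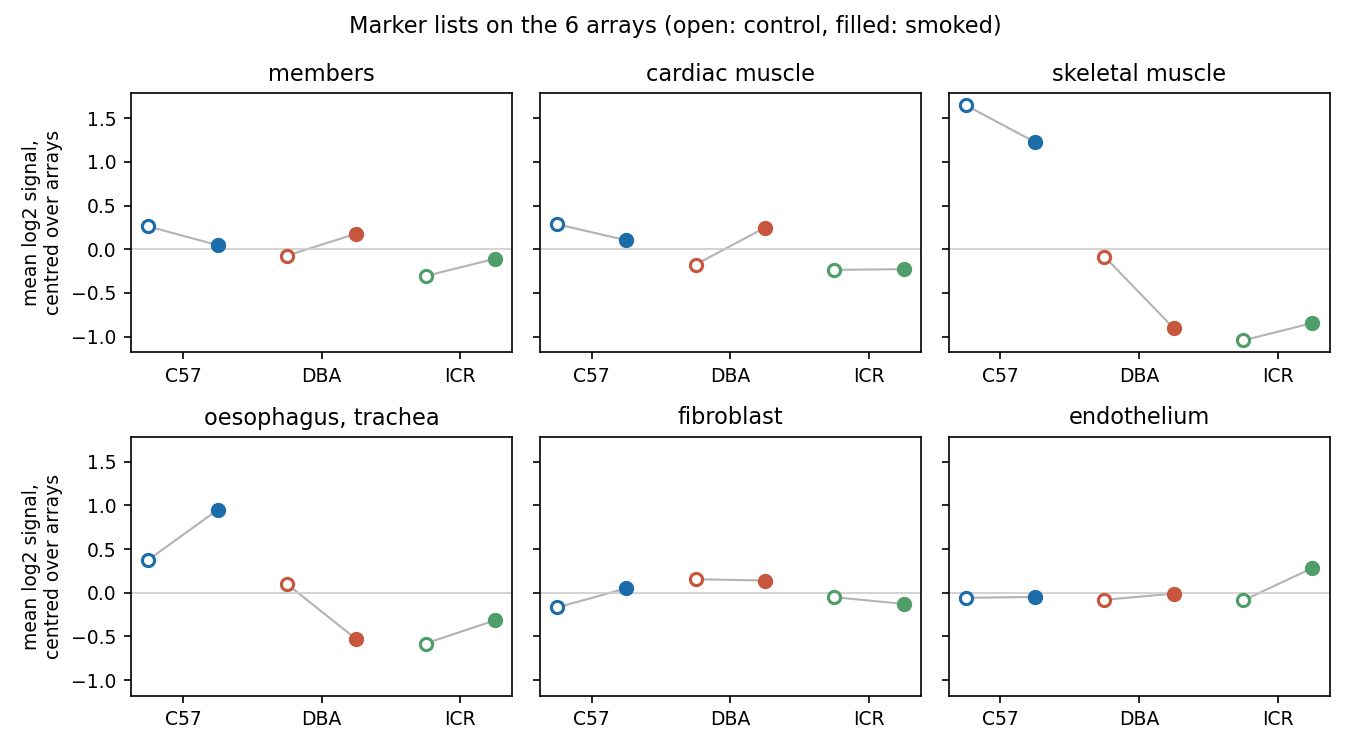
Mean normalized log2 signal of 6 gene lists on each array, centred on the list's mean over the 6 arrays (vertical axis), with open points for control and filled points for smoked arrays. The 9 smooth muscle and pericyte genes (panel titled members) and the cardiac list are lower on the smoked array in C57 and higher on it in DBA, whereas the skeletal muscle list is high in both C57 arrays only.

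Few other markers were called. Fibroblast markers (10 tested) were called in 1 case, Fbln1, a matrix glycoprotein, lower in ICR than in DBA by -1.68, and their mean log2 lay between 7.84 and 8.16 on all arrays. None of 8 endothelial markers was called in any of these comparisons, with mean log2 between 9.69 and 10.06. Of 5 lung epithelium markers Sftpb was called lower in ICR than in C57, by -0.97. Of 7 leukocyte markers none was called for smoke or between strains. S100a8, S100a9, Ngp and Chil3 were called in the extra smoke effects of DBA (lower) and of C57 (higher). These calls are not independent, since the C57 effect is taken against a mean that includes the DBA pair. The summed intensity of the leukocyte list was 16461 and 1416 on the DBA control and smoked arrays. In the same order it was 1641 and 2785 in C57, and 4793 and 1820 in ICR.

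Of 36 further contractile and cytoskeletal genes of smooth muscle, 25 were measured and 19 tested. For smoke none was called, from -0.51 for Itga8, an integrin chain of smooth muscle, to 0.29 for Csrp1, a LIM protein of the actin cytoskeleton, with a median of 0.04. Tpm2, the beta-tropomyosin that lies along actin in smooth and skeletal muscle, was the 1 gene called between strains, lower in ICR than in C57 by -1.59 (SE 0.32, adjusted p = 0.0436). Its deposited intensities were 438 and 246 in C57, 126 and 165 in DBA, and 66.7 and 48.6 in ICR, so both C57 arrays were above the rest. Of the skeletal muscle markers, 5 of 8 tested were also called lower in ICR than in C57. How far skeletal muscle takes part in the Tpm2 value was not tested, and no alternatives are given for this call. In DBA minus C57 Tpm2 was lowest at -1.29 (adjusted p = 0.101) and Itga8 highest at 2.0 (adjusted p = 0.0937), and in ICR minus DBA values ran from -0.92 for Tinagl1, a basement membrane protein, to 0.29 for Mcam, an adhesion molecule of vessel walls. The medians were 0.13, -0.02 and -0.17 in DBA minus C57, ICR minus C57 and ICR minus DBA. Kcnmb1, the smooth muscle beta subunit of the large calcium-activated potassium channel, did not pass the filter and was singled out after its values were seen. It read 38.0 and 25.4 in C57, 32.2 and 50.7 in DBA, and 4.15 and 1.83 in ICR, below the constant of 8.05 added to all values, so no fold change is given.

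Among 32 genes of serum response factor, myocardin and contractile signalling, 18 were measured and 13 tested, with none called for smoke or between strains. The list included Srf and Myocd, for which no values are given here. Smoke values ran from -0.41 for Mrtfa, a myocardin-related coactivator, to 0.20 for Tbx2, a transcription factor of lung mesenchyme. Edn1, the vasoconstrictor endothelin 1, was highest in ICR minus C57 at 1.21 (SE 0.28, adjusted p = 0.0649) and in ICR minus DBA at 1.35 (SE 0.28, adjusted p = 0.0620), with intensities of 151 and 173 in C57, 148 and 187 in DBA, and 385 and 124 in ICR. Gata6, a transcription factor of smooth muscle and lung epithelium, was highest in DBA minus C57 at 0.88 and lowest in ICR minus DBA at -0.62. The medians were -0.12 for smoke and 0.44, 0.38 and 0.09 for DBA minus C57, ICR minus C57 and ICR minus DBA.

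Of 25 pericyte and PDGF pathway genes, 18 were measured and 14 tested, and none was called for smoke or between strains. Smoke values ran from -0.54 for Angpt1, a ligand that pericytes supply to the endothelium, to 0.41 for Pdgfa, a ligand of the alpha receptor, with a median of -0.01. Pdgfb, the ligand of Pdgfrb, was highest in DBA minus C57 at 0.99 (SE 0.29, adjusted p = 0.170) and lowest in ICR minus DBA at -0.88 (SE 0.29, adjusted p = 0.196), with intensities of 53.3 and 71.6 in C57, 155 and 164 in DBA, and 65.9 and 25.2 in ICR, while its receptor differed by 0.06 and -0.07. Gja4, a connexin of vessel walls, was highest in ICR minus C57 at 1.02 (SE 0.23, adjusted p = 0.0637) and Anpep, a peptidase present on pericytes, lowest at -0.67. Rgs5, a regulator of G protein signalling typical of pericytes, read 10.7 to 32.4 and did not pass the filter.

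The genes varied to different degrees around their mean pattern. The mean centred log2 profile of the 9 genes was 0.26 and 0.05 for the C57 control and smoked arrays, -0.07 and 0.18 for DBA, and -0.31 and -0.11 for ICR. Acta2 and Tagln lay nearest to it, with root mean square differences over the 6 arrays of 0.09 and 0.10, and Des and Cnn1 farthest, with 0.40 and 0.31. The mean profile includes each gene itself. The distance also depends on how widely a gene varied, and Cnn1 had the widest range of the 9 genes (1.32). Among 4223 other genes with at least the range of the mean profile (0.57), those nearest to the mean profile were Med24 (0.06), Ivd (0.07), Pdk1 (0.07), Ift81 (0.08) and Gprasp1 (0.08). With 6 arrays that share strain and quality differences, this likeness is a description of these arrays.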

How the data were processed

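The authors deposited 1 linear intensity per probe set and array, from Trizol-extracted lung RNA on Affymetrix arrays, per the labels' protocols and series text. Summary method: not given in the sources used here; scaling likewise. Gene symbols came from the platform annotation (10855 probe sets with 1 symbol, 396 with several, 1237 with none), and those of 10839 probe sets matched a RefSeq gene table (GRCm38.p6) by gene identifier, with 0 changed. A constant of 8.05, the value at percentile 20 of the whole table, was added to the deposited intensity before taking log2, and arrays were quantile normalized, because their medians spread over 1.45. After removal of 66 control probe sets, those with a mean above percentile 40 were kept. R 4.3.3 and limma 3.58.1 fitted smoke and strain (lmFit, eBayes with a mean trend; strain as a block; 2 residual degrees of freedom, 1 for a response), two-sided, with Benjamini-Hochberg adjustment over 7453 probe sets. Scripts were tested on simulated data. Other lists (further smooth muscle, signalling, pericyte, fibroblast, skeletal, cardiac, oesophagus, epithelium, endothelium and leukocyte genes) used 1 probe set a gene, the one with the highest mean, and named each called gene or else the highest and lowest. Members and lists were chosen with earlier results of these data known. P-values measure only the spread between these samples, which eBayes in part pools over probe sets. No 2 arrays were duplicates, and the number of arrays limits precision. Alternatives were other pseudocounts, filters, scalings, variance priors, no block or exposure term, and each pair or array left out. Plots used matplotlib 3.10.9.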

Additional observations from a re-analysis of the deposited data

How the results depend on the processing

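With 6 arrays the design limits what can be seen, and low signal on the ICR smoked array adds to it. The smoke comparison paired the control and smoked arrays of a strain through the strain block. By replicate number, no paired analysis was possible because every group holds only number 1. No member gene was called in 9 to 15 alternatives of each comparison, except Cnn1 in ICR minus C57, where the count was 1 with scaling to a common median and 0 to 1 with an array left out. Numbers of lower genes were 0 in the DBA pair without scaling, and 8 and 5 in the ICR pair without scaling and with scaling to a common median (alternatives chosen after the data were seen). At least 2-fold in the ICR pair counted 0 with 32 added, 2 without scaling and 0 with scaling to a common median. The 2 without scaling were Cnn1 (-1.19) and Smtn (-1.10), both lower on the smoked array, while Des stood at 0.10. The all-probe-set median of that pair was then -0.87. The alternative with the mean of a gene's probe sets was not run, since each gene had 1, and Smtn did not pass the stricter filter.

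Values that changed sign, none of them called, were as follows. For smoke without scaling: Acta2 -0.16, Tagln -0.11, Myh11 -0.18, Pdgfrb -0.17. For DBA minus C57 with scaling to a common median: Acta2 -0.22, Tagln -0.16, Myh11 -0.15, Pdgfrb -0.030. For ICR minus C57, Myl9 was -0.72 without scaling and -0.12 with scaling to a common median, and for ICR minus DBA Des was -0.68 without scaling. With a pair left out, smoke values ran from -0.075 to 0.19 for Acta2, -0.018 to 0.31 for Tagln, -0.12 to 0.39 for Myh11, -0.31 to 0.039 for Cnn1, -0.13 to 0.49 for Des, -0.084 to 0.031 for Myl9, -0.19 to 0.057 for Smtn and -0.026 to 0.10 for Pdgfrb. With an array left out, DBA minus C57 ran from -0.18 to 0.26 for Acta2, -0.20 to 0.36 for Tagln, -0.36 to 0.59 for Myh11, -0.60 to 0.040 for Cnn1, -0.091 to 0.35 for Smtn and -0.067 to 0.18 for Pdgfrb. ICR minus C57 ran from -1.14 to 0.039 for Des, -0.049 to 0.15 for Myl9, -0.22 to 0.078 for Smtn and -0.073 to 0.058 for Pdgfrb. ICR minus DBA ran from -0.32 to 0.86 for Des, -0.28 to 0.032 for Actg2, -0.43 to 0.018 for Smtn and -0.19 to 0.060 for Pdgfrb. The cause was not tested.

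Over all probe sets the counts called, 3 for smoke, 129, 170 and 84 for DBA minus C57, ICR minus C57 and ICR minus DBA, and 22, 43 and 0 for the responses of C57, DBA and ICR, ran from 0 to 33, 67 to 282, 35 to 437, 14 to 280, 0 to 24, 7 to 55 and 0 to 1787. The 1787 for the response of ICR came without scaling. Only 7 of them were higher, and the all-probe-set median of the ICR pair was then -0.87. For smoke and the comparisons of strains, the splits into higher and lower without scaling were 1 and 2, 64 and 21, 7 and 138, and 4 and 257, against 3 and 0, 65 and 64, 69 and 101, and 38 and 46. With scaling to a common median they were 1 and 0, 54 and 85, 50 and 179, and 31 and 38.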
